A study of Mus musculus with 2 samples.

Results

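The cells described here are germ cells of fetal mouse testes that already held several transcripts of Sycp1 at embryonic stage E12.5, when most germ cells had none detected. They were selected on their Sycp1 count: of 2494 E12.5 germ cells, 140 (5.61%, exact binomial 95% interval 4.74 to 6.59%) had 3 or more Sycp1 UMIs, that is, transcript molecules counted once by their molecular identifier. A germ cell was a barcode with 500 or more genes, 5000 or more UMIs, under 10% mitochondrial UMIs, and at least 0.2% of UMIs from the germline genes Dazl, Pou5f1, Dppa3 and Dppa5a together. The 140 cells, called early Sycp1 cells below, were compared with the 1568 E12.5 germ cells that had 0 Sycp1 UMIs, called Sycp1-zero cells. The question was whether other genes that are higher a day later are also ahead in them.

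The study profiled single cells from the fetal testis of CD1 mice, an outbred strain, at E12.5 and E13.5, with 1 droplet library (10x v2 chemistry, which counts transcript 3' ends) per stage. Both libraries were of male germ cells sorted for Oct4GFP, a fluorescent reporter of Pou5f1, so both groups carry the transgene, no further genotype or treatment is labelled, and a cell that had lost the reporter would not have been collected. The number of embryos behind a library is not given in the labels. The 2 tables list 5839 barcodes, of which 2494 at E12.5 and 2549 at E13.5 were germ cells by the rule above. Germ cells had medians of 23501 and 21887 UMIs, and the libraries shared 24 barcodes, none of which was an early Sycp1 cell. With 1 library per stage, stage and library cannot be told apart, cells are not replicates, and no test was made: every interval below is a 95% interval for counting error only, and differences are described by size.

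Sycp1 encodes the transverse filament of the synaptonemal complex, the protein ladder that holds paired homologous chromosomes together in meiotic prophase. In the fetal ovary germ cells enter meiosis at about this age, after induction of Stra8 by retinoic acid and BMP signals. In the fetal testis they instead stop dividing and begin a male programme under the control of Nanos2 and Nodal signalling, and meiosis starts only after birth, yet several genes of the chromosome axis are transcribed in germ cells of both sexes once they have settled in the gonad and lost DNA methylation. Uchl1 encodes a ubiquitin hydrolase found in neurons and in male germline stem cells.

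The promoter of Sycp1 and those of Smc1b and Taf7l, which were among the genes higher in early Sycp1 cells, are shown because each holds short motifs, among them sites of factors known to repress germline genes. The stretches are the 100 bases before the RefSeq start of each gene (GRCm38.p6), read 5' to 3' on the gene's strand, the minus strand in each case. Capitals mark CACGTG, an E-box of the kind bound by MAX and MGA, TCCCGC, the core of the E2F6 site, or the palindrome CTCGCGAG. The palindrome was added to the search after the sequences had been seen.
Sycp1, chr3:102936101-102936200: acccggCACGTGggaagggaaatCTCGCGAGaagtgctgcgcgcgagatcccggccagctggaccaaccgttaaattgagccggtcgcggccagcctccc
Smc1b, chr15:85131958-85132057: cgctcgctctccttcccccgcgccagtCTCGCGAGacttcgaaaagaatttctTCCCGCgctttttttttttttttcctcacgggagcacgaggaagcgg
Taf7l, chrX:134476491-134476590: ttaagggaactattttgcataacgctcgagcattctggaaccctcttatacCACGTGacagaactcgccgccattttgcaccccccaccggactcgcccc
Sycp1 and Smc1b share the palindrome, and Sycp1 and Taf7l the E-box. Over the 250 bases before the start of all 27025 genes in the promoter table, searched on both strands, the E-box was present in 6.05%, the E2F6 core in 16.9% and the palindrome in 0.781%. Over the 5364 genes with an entry among the 6880 at 10 CPM or more in E12.5 germ cells, under 80% of them, the shares were 9.45, 33.4 and 2.31%. None of the 3 motifs was found in the same 100 bases of Mael, Syce1, Usp26, Uchl1, Gtsf1, Bnc2 or Stra8, which says only that these letters are not in that window; the longer window of Mael held both the E-box and the E2F6 core. Shares over the gene groups below are not given, because again fewer than 80% of their genes had an entry in the promoter table (56 of the 78 genes that are higher by E13.5).

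Sycp1 transcripts were few and unevenly spread at E12.5. No Sycp1 UMI was found in 1568 germ cells, 576 had 1, 210 had 2, 68 had 3, 37 had 4 and 35 had 5 or more, up to 11 in a cell. At E13.5, 1455 of 2549 germ cells (57.1%, 55.1 to 59.0%) had 3 or more, 358 had 0 and the highest count was 34. The early Sycp1 cells thus held as many Sycp1 UMIs as the more common E13.5 cell, with a summed level of 156 CPM (the gene's UMIs scaled to the total of the cells) against 184 CPM over all E13.5 germ cells, a comparison that the rule for choosing them fixes in part.

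**Figure D1:**
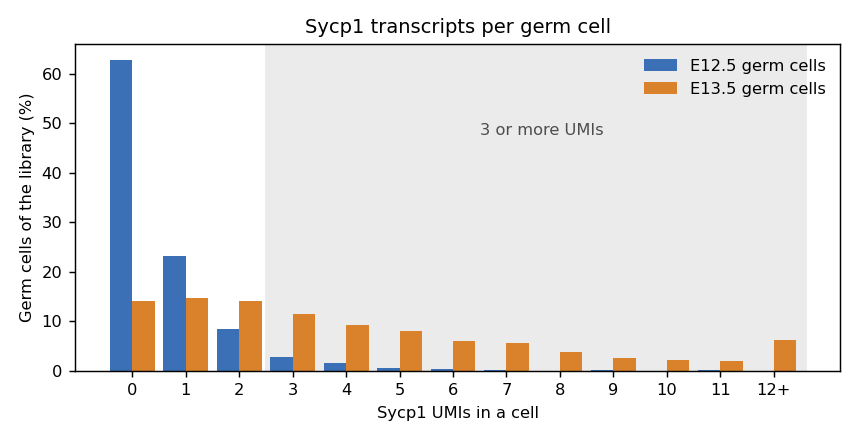
Share of germ cells (y axis, percent of each library's germ cells) by number of Sycp1 UMIs in the cell (x axis), for the E12.5 and the E13.5 library. The shaded range holds 5.61% of E12.5 cells and 57.1% of E13.5 cells.

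Counts were also compared after each cell was thinned to 15000 UMIs, which leaves out 198 shallower E12.5 cells. The thinned E12.5 counts of Sycp1 had a variance 1.62 times their mean, against a median of 1.03 and a 95th percentile of 1.13 over 3552 genes of like level, 10 of which had a higher value. At E13.5 the factor was 2.56, against a median of 1.11 over 1221 genes, 11 of which were higher. Sycp1 therefore varied more from cell to cell than nearly all genes of its level in both libraries. Of 11 E12.5 barcodes that passed the filters but not the germline limit, 0 had a Sycp1 UMI, which allows a share of up to 28.5%, and 1 of 32 such barcodes at E13.5 had one (3.13%, 0.0791 to 16.2%). Their median depths were 10901 and 10808.5 UMIs, so these few and shallower cells bound the background only loosely, and a count of 0 in a germ cell does not show that the transcript was absent.

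The label of early Sycp1 germ cells was checked against markers. All 8 germline markers reached 10 CPM and none differed by 1.3-fold or more from Sycp1-zero cells, with ratios from 0.858 to 1.17. Dazl, Pou5f1, Dppa3 and Dppa5a are among the 8 and chose the germ cells of both sets, so their presence was fixed by the rule. Of the markers not used to find germ cells, the RNA helicase gene Ddx4 (vasa) stood at 94.3 against 80.5 CPM. Dnd1, an RNA-binding protein needed for germ cell survival, was at 135 against 158 CPM. Summed Sertoli markers were 13.1 CPM in early Sycp1 cells and 11.8 CPM in Sycp1-zero cells, macrophage markers 2.72 and 2.36 CPM, and interstitial and erythroid markers were at 0 in all 140 early Sycp1 cells. Endothelial markers were 89.1 and 95.8 CPM, mostly from Pecam1 (72.2 and 77.7 CPM), which germ cells of this age also express. The second marker proposed for these cells, Uchl1, did not set them apart: its level was 38.7 CPM against 32.6 CPM in Sycp1-zero cells, 1.19-fold (0.991 to 1.42), while all E13.5 germ cells stood at 235 CPM. After thinning, 39.3% of early Sycp1 cells had a Uchl1 UMI (31.0 to 48.0%), 35.3% of Sycp1-zero cells (32.8 to 37.8%) and 89.1% of E13.5 germ cells; without thinning the shares were 50.7, 46.2 and 92.7%. The cells are therefore described by their Sycp1 count alone.

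Genes that are higher by E13.5 were mostly a little higher in early Sycp1 cells as well. They were taken as the 78 genes at least 2-fold higher in E13.5 germ cells than in the 786 E12.5 germ cells with 1 or 2 Sycp1 UMIs, cells that belong to neither set compared, among 6880 genes at 10 CPM or more over E12.5 germ cells, Sycp1 left out. Of the 78, 22 (28.2%) were at least 1.3-fold higher in early Sycp1 cells and 4 (5.13%) at least 1.3-fold lower. The background over all 6880 genes was 2.89% higher and 4.22% lower. It is not matched for level, and 50 of the 78 genes were at 10 to 20 CPM, where counting error is wider. The minimum level counts early Sycp1 cells too, so a gene near 10 CPM can pass it through them. With a minimum of 5 CPM, 34.0% of the genes higher at E13.5 and 5.07% of all genes were at least 1.3-fold higher. With 50 CPM these were 0 of 5 genes and 0.60%. The median log2 ratio of the 78 genes was 0.20, against -0.01 over all genes, and 62 of 78 ratios were above 1. The 305 genes at least 2-fold lower at E13.5 went the other way, with 75 (24.6%) at least 1.3-fold lower, 4 higher and a median log2 ratio of -0.20. Of the 199 genes at least 1.3-fold higher in early Sycp1 cells, 127 were within 1.5-fold between the stages. That class holds 5827 of all 6880 genes. The 261 genes that were 1.5-fold to 2-fold higher at E13.5 had a median log2 ratio of 0.13 and 40 members at least 1.3-fold higher.

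The distance covered was small. Summed over the 78 genes, the level was 2048 CPM in Sycp1-zero cells, 2329 CPM in early Sycp1 cells (1.14-fold, 1.11 to 1.16) and 6330 CPM in E13.5 germ cells, so early Sycp1 cells stood 6.56% of the way from one stage's Sycp1-zero cells to the next stage. The 2 most abundant of the 78 genes were not past 1.3-fold, Gm8730 (363 and 377 CPM), a gene model whose reads may be shared with a ribosomal protein gene, and the proteoglycan gene Sdc4 (120 and 122 CPM with 377 CPM at E13.5). Without both, the sums were 1548, 1846 and 4191 CPM, the ratio was 1.19 and the distance 11.3% of the way. Summed over the 305 genes lower at E13.5, the level was 14203, 12245 and 4684 CPM, a ratio of 0.862 (0.854 to 0.870) and 20.6% of the way. Of the genes higher at E13.5, those at 10 to 20 CPM had 19 of 50 at least 1.3-fold higher and those at 20 CPM or more 3 of 28; at lower levels the counting error is wider, and with a minimum of 50 CPM 0 of 5 genes passed 1.3-fold.

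**Figure D2:**
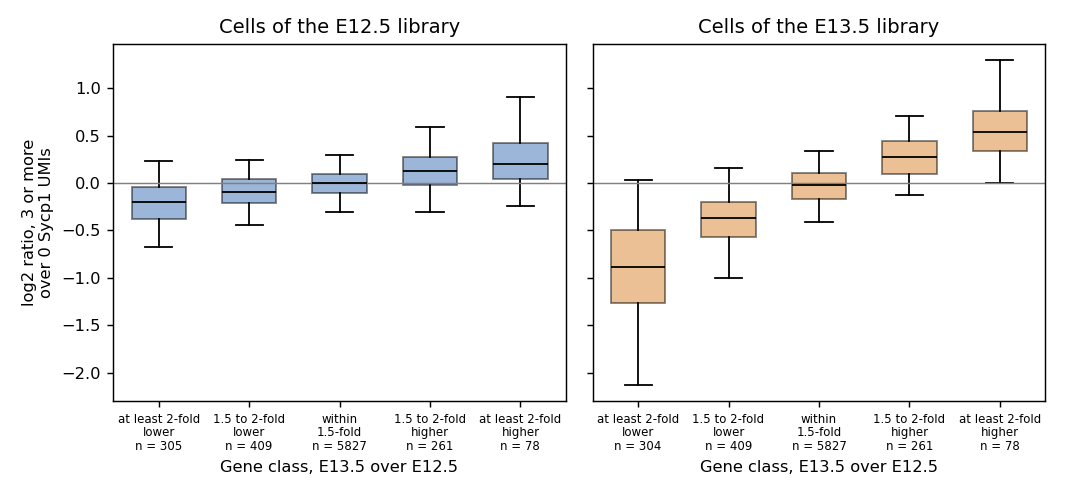
Log2 ratio of cells with 3 or more over cells with 0 Sycp1 UMIs (y axis) for genes grouped by their ratio between stages (x axis, with the number of genes), at E12.5 (left) and E13.5 (right); boxes are quartiles with the median, whiskers the 5th and 95th percentiles. Medians go from -0.20 to 0.20 at E12.5 and from -0.88 to 0.54 at E13.5; the E13.5 cells also enter the stage ratio that orders the classes.

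Among the genes higher at E13.5, the X-linked testis deubiquitinase gene Usp26 differed most. It stood at 16.3 CPM in Sycp1-zero cells, 39.5 CPM in early Sycp1 cells and 65.7 CPM at E13.5, a ratio of 2.42 (2.0 to 2.91), and after thinning 34.8% of early Sycp1 cells (26.8 to 43.5%) and 17.8% of Sycp1-zero cells (15.9 to 19.9%) had a Usp26 UMI (48.6 and 23.5% unthinned). Next came Tuba3b, an alpha-tubulin gene of the testis with a near-identical copy that may share its reads, at 2.11-fold (1.68 to 2.63), and Scml2, an X-linked Polycomb-group protein of the male germline, at 2.0-fold (1.60 to 2.48). On the CPM scale Tuba3b (12.7, 26.7 and 39.0 CPM) and Scml2 (13.7, 27.5 and 43.1 CPM) were, like Usp26, about midway between Sycp1-zero cells and E13.5 cells.

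Regulators of proliferation and transcription followed. Cdkn1c, which encodes the cyclin-dependent kinase inhibitor p57 and is linked with the mitotic arrest of fetal male germ cells, stood at 18.7 CPM in Sycp1-zero cells, 30.2 CPM in early Sycp1 cells and 79.6 CPM at E13.5 (1.62-fold, 1.31 to 1.98). Hesx1, a homeobox repressor, was at 12.9, 22.9 and 67.7 CPM (1.78-fold, 1.39 to 2.25), Mxd4, a MAX-binding antagonist of MYC, at 9.29, 17.4 and 27.9 CPM (1.88-fold, 1.41 to 2.46), and Tgif1, a repressor in TGF-beta and Nodal signalling, at 22.3, 31.6 and 64.1 CPM (1.42-fold, 1.16 to 1.72). Each of these 4 was higher in early Sycp1 cells than in Sycp1-zero cells and below E13.5 cells. Mxd4 was under 10 CPM in Sycp1-zero cells and reached that minimum only with the other E12.5 germ cells, early Sycp1 cells among them. Its selection therefore favours a ratio above 1.

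Genes with germline functions were part of the same group. Tex15, needed for meiotic recombination and for silencing of transposons, was 1.52-fold higher (1.28 to 1.81; 41.4 against 27.2 CPM), Tex19.2, a mammal-specific germline gene, 1.58-fold (1.2 to 2.07; 17.2 against 10.8 CPM) and Ddx25, an RNA helicase of spermatids, 1.48-fold (1.16 to 1.88; 21.5 against 14.5 CPM). Of the 10 genes with the greatest stage ratios at 10 CPM or more, predicted gene models such as Gm8730 (stage ratio 4.71, ratio 0.962 in early Sycp1 cells) left out, Uchl1 and the interferon-induced gene Ifi27 (28.1 and 27.0 CPM) were not past 1.3-fold. The other 8 were: beside Hesx1, Cdkn1c, Tex19.2 and Usp26 these were Hdgfrp3 (1.83-fold), Cthrc1 (1.53-fold), C1ql1 (1.47-fold) and Zmym3 (1.47-fold). Zmym3 was 1.24-fold higher when cells with a Stra8 UMI were left out. The 4 genes at least 1.3-fold lower were Pccb, Gtsf1l, Cd81 and Zfp260, and the interval excluded 1 for Cd81 alone (14.2 against 18.9 CPM, 1.33-fold lower).

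Several genes that are high at E13.5 were too low at E12.5 for the minimum of 10 CPM and were read from their counts. Bnc2, a zinc finger gene of the basonuclin family, had 38 UMIs in early Sycp1 cells and 123 in Sycp1-zero cells, 10.3 against 3.38 CPM (3.06-fold, 2.07 to 4.44), with 53.6 CPM at E13.5. Gtsf1, a piRNA pathway protein, was at 14.4 against 6.79 CPM (2.13-fold, 1.55 to 2.87). Taf7l, an X-linked germ cell subunit of the basal transcription factor TFIID, had 19 and 55 UMIs, 5.18 against 1.51 CPM (3.42-fold, 1.92 to 5.86). Other genes that are higher at E13.5 were not past 1.3-fold. Ptgr1, a prostaglandin reductase, was at 3.0 and 2.91 CPM with 63.9 CPM at E13.5, and Ipp at 6.0 and 7.06 CPM with 65.7 CPM at E13.5. Nanos2, the RNA-binding regulator of the male pathway, had 1 UMI in early Sycp1 cells and 14 in Sycp1-zero cells, too few for a ratio, against 25.8 CPM at E13.5. Pmaip1, which encodes the BH3-only death protein NOXA, was at 8.99 and 7.20 CPM (1.25-fold, 0.842 to 1.80) with 43.7 CPM at E13.5.

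Genes of the meiotic chromosome axis and recombination held 3 of the 10 highest ratios among named genes at 20 CPM or more (Smc1b, Syce1 and Tex15), whether or not they are higher a day later. Of 39 listed genes of the synaptonemal complex and axis, 31 were in the E12.5 table, 14 reached 10 CPM and 16, Sycp1 left out, did not. Of the 14, 6 (42.9%) were at least 1.3-fold higher and 0 lower, against 2.89% higher and 4.22% lower over all genes. The median log2 ratio of the 14 was 0.23. They summed to 1110 CPM in early Sycp1 cells and 913 CPM in Sycp1-zero cells, and with the 16 lower genes to 1202 and 963 CPM. Smc1b, the meiotic cohesin subunit, stood at 124 CPM in Sycp1-zero cells, 202 CPM in early Sycp1 cells and 281 CPM at E13.5 (1.63-fold, 1.51 to 1.77), and after thinning 94.1% of early Sycp1 cells (88.7 to 97.4%) and 77.7% of Sycp1-zero cells (75.4 to 79.8%) had a Smc1b UMI (99.3 and 85.9% unthinned). Syce1, a central element protein that binds SYCP1, was at 48.4 and 75.5 CPM but only 51.1 CPM at E13.5 (1.56-fold, 1.37 to 1.77), so early Sycp1 cells exceeded both. Sycp3, a lateral element protein, was at 45.8, 61.6 and 57.9 CPM (1.35-fold, 1.17 to 1.55), and 1.29-fold without cells that had a Stra8 UMI. Sycp2, its partner, was under 10 CPM, with 46 UMIs in early Sycp1 cells and 200 in Sycp1-zero cells (2.28-fold, 1.62 to 3.15). The axis genes Hormad1 (36.0 and 42.2 CPM, 1.17-fold) and Rec114 (38.5 and 37.1 CPM) and the central element gene Syce2 (307 and 331 CPM, 1.08-fold) differed less.

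Stra8, the gatekeeper of meiotic entry in the ovary, was carried by few cells. It had 62 UMIs in early Sycp1 cells, 16.9 CPM, against 4.26 CPM in Sycp1-zero cells and 2.34 CPM at E13.5 (3.96-fold, 2.90 to 5.36). Of the 140 cells, 16 had any Stra8 UMI and the 10 highest held 87.1% of them, up to 14 in 1 cell. After thinning the shares of cells with a Stra8 UMI were 9.63% (5.23 to 15.9%) and 3.47% (2.58 to 4.56%), or 11.4 and 4.4% unthinned. Most early Sycp1 cells thus had no Stra8 UMI at this depth, and when all cells with one were left out 22 of the 78 genes higher at E13.5 were again at least 1.3-fold higher.

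Other germline groups, which share genes with each other and with the axis list, also held genes past 1.3-fold. Of 14 genes at 10 CPM or more in a list of 18 that switch on in germ cells after they reach the gonad, 4 were at least 1.3-fold higher and 0 lower (median log2 ratio 0.23), among them Mael, a piRNA pathway gene, at 68.8, 110 and 131 CPM (1.60-fold, 1.44 to 1.78) and Mov10l1, a piRNA helicase gene, at 47.6, 64.6 and 88.4 CPM (1.36-fold, 1.18 to 1.55). When both sets of cells were found in thinned counts, 3 of these 4 were under 1.3-fold: Mov10l1 at 1.27-fold, Sycp3 at 1.26-fold and Tex101 at 1.23-fold. Of 11 genes of the male germline programme, 6 were higher and 0 lower (median log2 ratio 0.40), a list that also holds Hesx1, Cdkn1c, Ddx25 and Mov10l1. Another member was Lefty1, an inhibitor and target of Nodal signalling, at 84.1, 139 and 152 CPM (1.65-fold, 1.5 to 1.82). In the piRNA pathway 3 of 10 genes were higher, in Nodal signalling 2 of 7 and among immediate early and heat shock genes 1 of 8, with 0 lower in each, against 2.89% over all genes. The heat shock gene, Hspb1 (1.37-fold), was at 1.16-fold to under 1.3-fold in 4 alternatives, and Tdgf1, the Nodal co-receptor gene (1.32-fold), at 1.22-fold to 1.29-fold in 5. Lefty1 and Tdgf1 are in both the male programme and the Nodal list. Mael and Mov10l1 are in both the piRNA list and the list of genes that switch on in the gonad, which shares Sycp3 with the axis list. The counts are therefore not separate. Of 19 pluripotency genes, 19 polycomb and germline repressor genes and 3 retinoic acid response genes at 10 CPM or more, 0 were past 1.3-fold in either direction. Over all genes 2.89% were higher and 4.22% lower, so a count of 0 in lists this short is near the background. The 19 pluripotency genes summed to a ratio of 0.970 (0.957 to 0.982), with 7 intervals below 1 and 2 above. The retinoic acid list holds 16 genes, and 11 of them, Stra8 among them, were under 10 CPM. The 3 genes, with a largest ratio of 1.29, therefore do not stand for the list.

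Of the 290 genes at least 1.3-fold lower in early Sycp1 cells, 75 were at least 2-fold lower at E13.5, 31 were 1.5-fold to 2-fold lower and 172 were within 1.5-fold. Over all 6880 genes these classes held 305, 409 and 5827 genes. The X-linked homeobox genes Rhox6 and Rhox9, marks of earlier germ cells, stood at 319 and 567 CPM in Sycp1-zero cells, at 208 and 433 CPM in early Sycp1 cells and at 31.1 and 50.7 CPM at E13.5; Rhox6 was 1.53-fold lower and Rhox9 1.31-fold lower, the latter 1.29-fold lower with cells of 2 or more Sycp1 UMIs. Hk1, which encodes hexokinase 1, had the smallest ratio among named genes at 20 CPM or more, with 32.2, 16.9 and 3.29 CPM (ratio 0.525, 0.400 to 0.678). In the glycolysis list 15 genes reached 10 CPM. Of these, 3 (20%), Hk1, Pfkp and Slc2a3, were at least 1.3-fold lower, against 4.22% over all genes. Only Ldha (6.67%) was at least 1.3-fold higher, against 2.89% over all genes. It was 1.33-fold higher, and 1.09-fold higher with cells of 2 or more Sycp1 UMIs. Other genes with small ratios were Ptpre (0.567), Isl2 (0.579), Cdc6 (0.590), Mpp1 (0.611) and Ppp1r14a (0.626, and 0.796 with cells of 2 or more Sycp1 UMIs), all of them at least 2-fold lower at E13.5. The rest of the 10 smallest, Tmem201 (0.588), Hmgn5 (0.607), Dhx16 (0.618) and Tmem41b (0.622), were not. With both sets found in thinned counts Tmem201 was at 0.861 and Tmem41b at 0.992, so neither was past 1.3-fold there. Tmem41b was higher at E13.5 (38.3 CPM) than in Sycp1-zero cells (24.5 CPM). Kit, the receptor for KIT ligand, and the proliferation gene Mki67 differed by under 1.3-fold. Kit was a little lower, at 46.2 and 41.4 CPM with 18.5 CPM at E13.5. The median ratio of the 305 genes at least 2-fold lower at E13.5 was itself only 0.868. Mki67 did not follow, at 176 and 179 CPM with 98.2 CPM at E13.5.

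**Figure D3:**
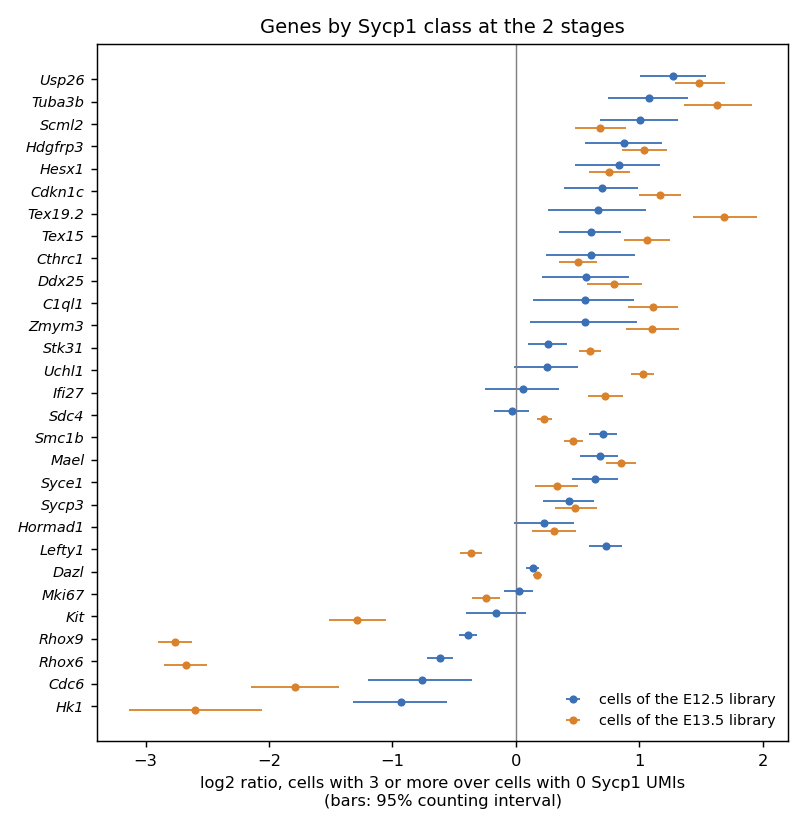
Log2 ratio of cells with 3 or more over cells with 0 Sycp1 UMIs (x axis) for named genes (y axis), in the E12.5 and the E13.5 library, with 95% counting intervals. Usp26 lies at 2.42-fold and 2.80-fold, Uchl1 at 1.19-fold and 2.04-fold, and Lefty1 is higher at E12.5 (1.65-fold) and lower at E13.5 (ratio 0.776).

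Cell cycle genes differed between the sets, with S phase genes lower and G2/M genes slightly higher in early Sycp1 cells. The S phase list had 42 genes at 10 CPM or more, and 7 of them stood at least 1.3-fold lower and 0 higher, among them Cdc6, which licenses replication origins (24.0 and 14.2 CPM), and Rrm2, a ribonucleotide reductase subunit (119 and 79.6 CPM). The share lower in the S phase list was 16.7%, against 4.22% over all genes. Of 50 G2/M genes 2 were higher, G2e3 (1.42-fold) and the kinesin gene Cenpe (1.32-fold), and 0 lower. That share, 4% higher, was near the 2.89% over all genes, so the count alone does not set the G2/M list apart. The slight rise was spread over the list, with 38 of the 50 ratios above 1. Per cell, 61.4% of early Sycp1 cells (52.8 to 69.5%) and 46.6% of Sycp1-zero cells (44.1 to 49.1%) had a G2/M share of UMIs above the median of all E12.5 germ cells, while 42.9% and 52.8% were above the median for S phase. With Sycp1-zero cells weighted to the cell cycle of the early Sycp1 cells, 22 of the 78 genes higher at E13.5 were again at least 1.3-fold higher with a median log2 ratio of 0.21, while Cenpe was at 1.15-fold and under 1.3-fold in 6 other alternatives.

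Other properties were close. Median UMIs were 24788.5 in early Sycp1 cells and 22986.5 in Sycp1-zero cells, and mitochondrial shares 3.74 and 3.90%; with Sycp1-zero cells weighted to the depth of the early Sycp1 cells the count was 26 of 78 genes. Scrublet called 0 doublets among the 140 cells and 7 among the 1568, and 12 among all 2494 (0.481%); so few calls make it a weak check for doublets. When E12.5 germ cells were clustered without Sycp1, early Sycp1 cells were found in every one of 6 clusters. They made up 7.61% of a cluster led by Plk1 and Aspm, genes of mitosis, 2.79 to 6.97% of 4 others and 10.6% (5.40 to 18.1%) of a cluster of 104 cells led by Stra8 and Id1, which held 11 of the 140.

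The differences tended to grow with the Sycp1 count and were largest in cells with 5 or more UMIs. The summed level of the 78 genes higher at E13.5 was 2048, 2139 and 2211 CPM in cells with 0, 1 and 2 Sycp1 UMIs, and 2206, 2334 and 2573 CPM in cells with 3, 4 and 5 or more. Just inside and just outside the limit of 3, the levels were thus alike. The 305 genes lower at E13.5 summed to 14203, 13557, 12852, 12752, 12334 and 11113 CPM over the same 6 sets. Smc1b was at 124, 140, 170, 188, 182 and 255 CPM, so that cells with 5 or more came near the 281 CPM of E13.5. Cdkn1c was at 18.7, 18.7, 23.0, 20, 28.5 and 53.1 CPM, and its higher level lay in cells with 4 or more. Stra8 was at 44.1 CPM in cells with 5 or more and at 4.26 to 10.6 CPM in the other sets. Uchl1 stayed between 32.6 and 39.7 CPM in all 6.

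**Figure D4:**
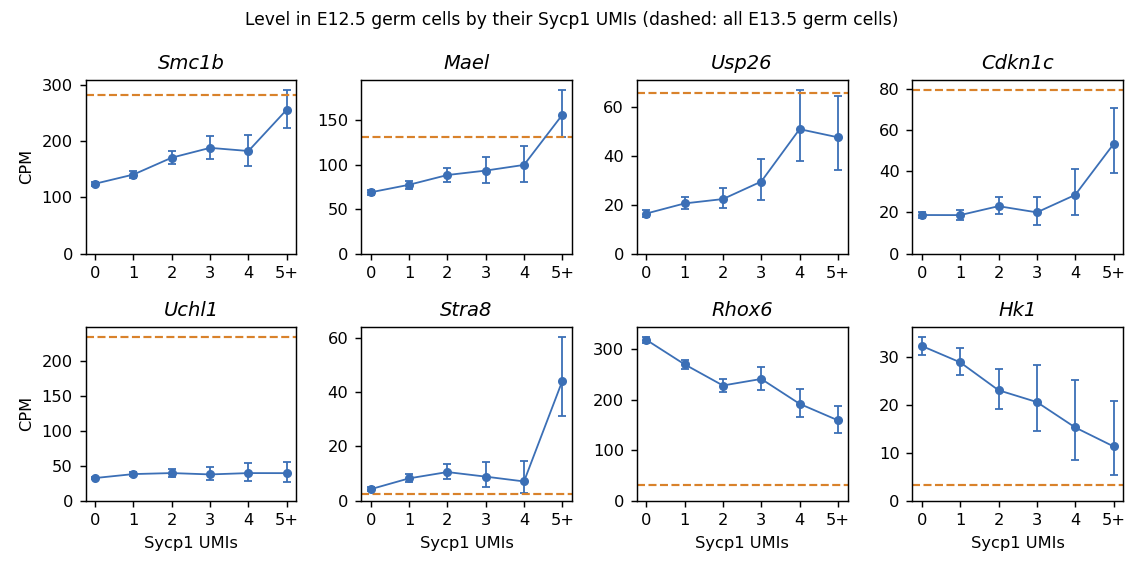
Level of 8 genes (y axis, CPM) in E12.5 germ cells by their Sycp1 UMIs (x axis), with exact Poisson 95% intervals; the dashed line is the level over all E13.5 germ cells. Smc1b goes from 124 to 255 CPM and Rhox6 from 319 to 159 CPM, while Uchl1 stays between 32.6 and 39.7 CPM.

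Single cells showed the same order. After thinning, a Sycp1-zero cell held UMIs of 20.1 ± 4.49 (SD over 1412 cells) of the 78 genes higher at E13.5, an early Sycp1 cell 23.0 ± 4.93 (135 cells), a cell with 5 or more Sycp1 UMIs 25.7 ± 5.64 (32 cells) and an E13.5 germ cell 39.0 ± 7.27 (2286 cells). For the 305 genes lower at E13.5 the means were 106, 96.6, 88.6 and 46.0 genes. The spread among cells of a set was wider than the difference between early Sycp1 and Sycp1-zero cells: the 90th percentile of early Sycp1 cells was 29 genes, equal to the 10th percentile of E13.5 cells.

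**Figure D5:**
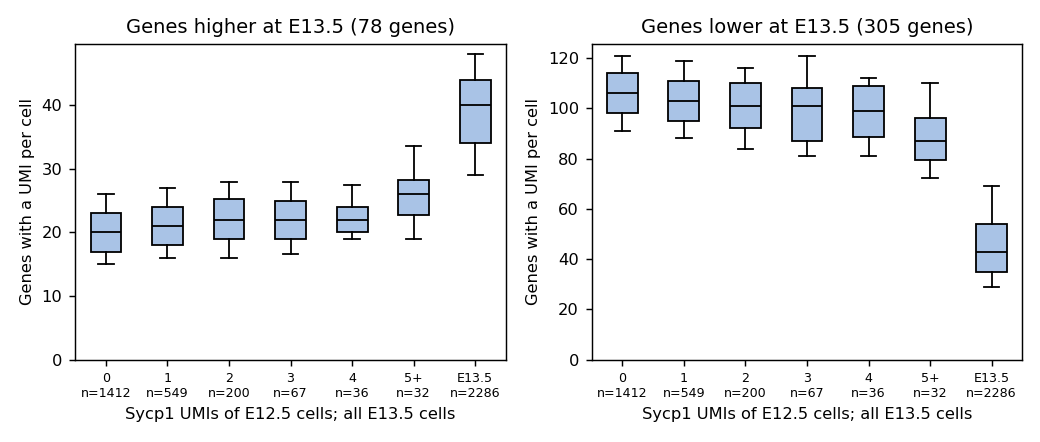
Genes with a UMI per cell (y axis) after thinning to 15000 UMIs, for the 78 genes higher and the 305 genes lower at E13.5, by the Sycp1 UMIs of E12.5 cells and for all E13.5 germ cells (x axis, with the number of cells); boxes are quartiles with the median, whiskers the 10th and 90th percentiles. Medians for the 78 genes are 20 at 0 UMIs, 22 at 3 UMIs, 26 at 5 or more and 40 at E13.5.

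The same contrast was made in the E13.5 library, whose cells the rule did not use, between 1455 cells with 3 or more and 358 cells with 0 Sycp1 UMIs. There 52 of the 78 genes higher at E13.5 were at least 1.3-fold higher and 0 lower, and 251 of the 305 genes lower at E13.5 were lower, where the background was 5.28% higher and 12.2% lower; the E13.5 cells also define these genes, so the counts are a description. Among single genes, Usp26 (2.80-fold, 2.44 to 3.23), Tuba3b (3.10-fold), Taf7l (6.49-fold) and Gtsf1 (3.66-fold) were again higher in cells with Sycp1, as were Smc1b (1.38-fold, 1.31 to 1.46) and Mael (1.80-fold). Uchl1 differed there, at 278 against 137 CPM (2.04-fold, 1.91 to 2.18). Lefty1 was on the other side, at 140 against 180 CPM (ratio 0.776, 0.730 to 0.826). Kit, which was lower by under 1.3-fold at E12.5, had a ratio of 0.411 (0.350 to 0.483). No test of the difference between the stages was possible with 1 library each.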

How the data were processed

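Single-cell libraries (10x v2 chemistry, per the labels' protocols) of sorted male germ cells were deposited as 1 table of raw UMI counts per stage, which the authors made with Cell Ranger against mm10 (GRCm38), per the submitters' processing notes; version, annotation and cell filters are not given in the sources used here. Each listed gene had UMIs in at least 3 barcodes and each barcode at least 201 genes. The tables hold 60383440 UMIs at E12.5 and 59842242 UMIs at E13.5. The members and gene lists were chosen with earlier results of these data known.

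Counts were summed per set of cells (3669991 UMIs in early Sycp1 cells, 36379839 in Sycp1-zero cells) and given as CPM. Ratios have exact conditional binomial (Clopper-Pearson) 95% intervals, shares exact binomial ones, and a ratio needs 3 UMIs in each set. Genes at 10 CPM or more over E12.5 germ cells were described, and 1.3-fold is a class of size. Named genes were a fixed set of germline genes, the 10 highest and 10 lowest ratios at 20 CPM or more with an interval that excludes 1, the 10 highest stage ratios (in each case leaving out mitochondrial, ribosomal protein and globin genes and predicted gene models), genes higher at E13.5 and the ends of each list. Cells were clustered with scanpy 1.11.5 and leidenalg 0.10.2, and TMM factors came from edgeR 4.0.16. Ratios and their intervals were tested on simulated sums with counting error only, without the spread among cells. Thinning was checked on simulated cells only for the total left in each. Promoters are from RefSeq (GRCm38.p6), gene positions from the annotation GENCODE. The closing section gives the alternatives.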

Additional observations from a re-analysis of the deposited data

How the results depend on the processing

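Over 17 alternatives there were 99 values of the 6 summary results. Of these, 68 stayed within a set limit and 31 did not. The limit was the counting interval for summed levels, an interval from the ranked gene ratios for the median, and 1.5 times for counts. The 68 include counts over all genes where only the genes higher and lower at E13.5 were redefined, which could not move. None of the medians and summed levels changed direction, while the gene counts have no direction that could reverse. With 2 or more Sycp1 UMIs as the limit, summed levels were 1.10-fold (genes higher at E13.5) and 0.888-fold (genes lower at E13.5), and 76 and 109 of all genes were at least 1.3-fold higher and lower. With 5 or more, which leaves 35 cells, these were 1.26-fold, 0.782-fold, 736 and 1004, with 37 of 78 genes and a median log2 ratio of 0.36. A minimum of 5 CPM gave 49 of 144 genes, and 428 and 509 of all genes. No minimum gave 452 of 1110, 1.19-fold, 0.874-fold, 2532 and 3304. A minimum of 50 CPM gave 0 of 5, a median of 0.10, 1.02-fold, 0.853-fold, 16 and 23. A 1.5-fold class gave 45 and 78 of all genes. Genes taken as higher or lower at 1.5-fold gave 62 of 339 genes and 0.922-fold, genes from all E12.5 germ cells 1.17-fold, TMM factors 0.847-fold, and leaving out cells with a Stra8 UMI, chosen after seeing the data, 0.872-fold. Of 49 named genes past 1.3-fold, 32 stayed past it in every alternative run on them; 17 did not, among them Wnt3 (1.59), at 1.23 when both sets were found in thinned counts. No paired analysis was possible because each stage has 1 library. Depth limits the early Sycp1 cells to 3669991 UMIs, so a gene at 10 CPM there rests on few counts.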

Other observations

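Beyond the lists, the genes with the highest ratios at 20 CPM or more included Fmr1nb, an X-linked testis antigen gene, at 21.1 CPM in Sycp1-zero cells, 36.5 CPM in early Sycp1 cells and 47.3 CPM at E13.5 (1.73-fold, 1.43 to 2.08), and Lmo1, a LIM-domain transcription cofactor, at 29.4, 50.7 and 72.6 CPM (1.72-fold, 1.47 to 2.01). Both were 1.5-fold to 2-fold higher at E13.5 and so lay outside the 78 genes. Tex13 (1.71-fold, 1.39 to 2.08) and Add3, a membrane skeleton gene (1.58-fold, 1.3 to 1.92), were higher in early Sycp1 cells although their levels at E13.5 were lower, 10.0 and 12.7 CPM, as was the case for Stra8. For these 3 genes the level in early Sycp1 cells did not lie between the levels of the stages.

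Chromosome X was looked at after the values of Usp26, Scml2 and Fmr1nb had been seen. Of the 199 genes at least 1.3-fold higher in early Sycp1 cells, 193 were in the annotation and 17 of these (8.81%) were X-linked, against 186 of 6685 (2.78%) over all genes at 10 CPM or more and 13 of 280 (4.64%) among genes at least 1.3-fold lower. The 17 include the germline genes Scml2, Usp26, Tex11 and Fmr1nb, and the 13 include Rhox6 and Rhox9.

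Among genes of the BCL2 family, 6 reached 10 CPM. Of the 6, 1 was at least 1.3-fold higher and 1 lower (16.7% each), against 2.89% and 4.22% over all genes. Bcl2l1, which encodes the survival protein BCL-XL, was 1.34-fold higher (1.03 to 1.73; 18.8 against 14.0 CPM) and Bad, a BH3-only gene, 1.40-fold lower (31.6 against 44.2 CPM), while Bax was at 477 and 513 CPM. Both classes ended when the sets were found in thinned counts, at 1.17-fold for Bcl2l1 and a ratio of 0.81 for Bad.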
